A study of Mus musculus with 2 samples.

Results

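The genes described here encode the protein subunits of the mitochondrial ribosome, in the developing mouse midbrain. They were chosen by name, as the protein-coding genes whose GENCODE symbol starts with Mrpl (large subunit) or Mrps (small subunit) followed by a number. In all, 77 such genes were found among the 43346 Ensembl genes of the deposited tables. GENCODE M21 annotates 78, and Mrpl33 was not analysed here. By current knowledge of the structure, 50 of the 77 belong to the large subunit, including Mrps18a and Mrps30 despite their names, and 26 to the small subunit. Mrps36 was named for the mitochondrial ribosome but is now known as a component of the oxoglutarate dehydrogenase complex, and it was kept apart in the subunit groups.

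The data are 2 total RNA-seq libraries from the midbrain of B6NCrl mouse embryos at 14.5 days of development with no treatment named, called embryo 1 and embryo 2 here. Both form 1 group, so the design implies a description of levels and of the spread between biological replicates. No test between conditions was possible, and no p-value is given. The labels describe a single midbrain per library, from pups collected on different days, yet give the sex as pooled. The Y-linked gene Eif2s3y had 1901 counts in embryo 1 and 0 in embryo 2, whereas Xist had 3 and 20808.

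The mitochondrial ribosome translates the few messenger RNAs made from mitochondrial DNA, all of which encode subunits of the oxidative phosphorylation complexes. Its ribosomal RNAs are transcribed in the mitochondrion, but every one of its proteins is encoded in the nucleus, made in the cytosol and imported. Many of these proteins have counterparts in bacterial ribosomes, and others were added during the evolution of mitochondria and coat the RNA core. Neurons depend heavily on oxidative phosphorylation, and inherited defects of mitochondrial translation often affect the brain.

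The libraries held 32716141 and 30185472 estimated counts. The markers of the labelled tissue were present: all 6 midbrain genes, 8 neuronal genes and 6 progenitor genes listed had a TPM (the deposited level, corrected for transcript length and library depth) of at least 1 in both embryos. Other tissue differed between the libraries. The summed TPM of 8 mesenchyme markers was 404 in embryo 1 and 10.95 in embryo 2. Of the defining collagen genes, Col1a1 stood at 52.0 and 0.77. The 8 erythroid markers summed to 9891 and 6452, and 8 microglial markers to 113 and 45.2. Choroid plexus markers (5 genes) summed to 107 and 6.59, and 6 endothelial markers to 130 and 83.7. Most of the choroid plexus sum came from Ttr in embryo 1 (96.3, against 0.37 in embryo 2). In embryo 2 most came from Folr1, at 6.24 in embryo 1 and 5.22 in embryo 2. The 8 cell cycle markers summed to 295 and 142. The 8 neuronal markers summed to 4736 and 5104, but their median TPM was 344 and 322. Of these 8, Stmn2, Gap43, Elavl3 and Rbfox3 were higher in embryo 2 by TPM, and Tubb3, Dcx, Elavl4 and Map2 were lower. The part of these differences in any result below was not tested, and in bulk tissue fewer cells of a type and less RNA per cell cannot be told apart.

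Every one of the 77 genes was expressed, with a TPM above 10 in both embryos. Their median TPM was 70.9 in embryo 1 and 72.9 in embryo 2. The median of the gene means, 71.4, lay above 89.5% of all 21461 protein-coding nuclear genes and above 82.4% of the 12773 that reached a TPM of 1 in both embryos, called expressed below. Together they took 106127 counts in embryo 1 and 107649 in embryo 2, which is 0.335% and 0.369% of the gene counts. For comparison, the median TPM was 523 for 79 cytosolic ribosomal protein genes and 338 for 86 nuclear genes of oxidative phosphorylation subunits. The mitochondrial ribosomal protein genes thus stood below both of these groups and above the typical expressed gene.

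**Figure D1:**
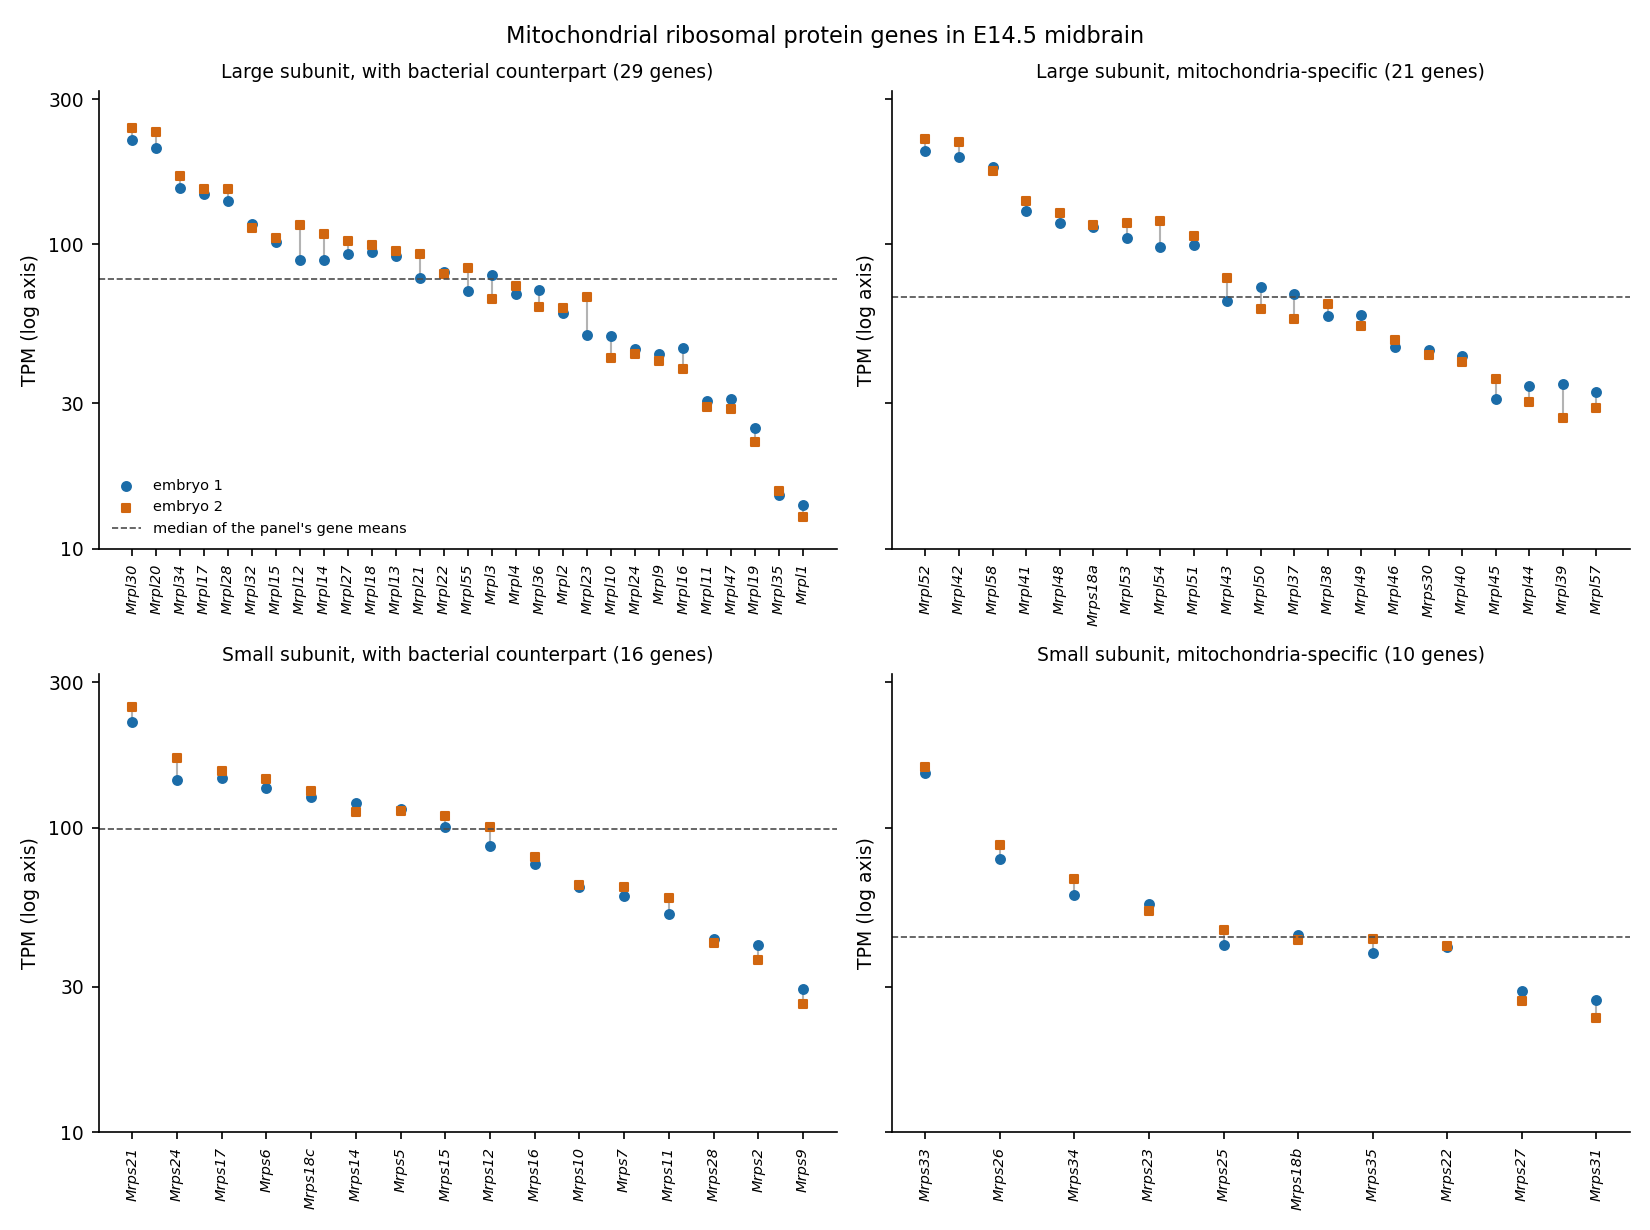
Level of each mitochondrial ribosomal protein gene in both embryos, in TPM on a log axis, for 76 genes in 4 groups (Mrps36 is not drawn). Circles are embryo 1, squares embryo 2, grey lines join the values of a gene, and dashed lines mark the median of the gene means, from 43.6 for the small-subunit genes specific to mitochondria to 99.2 for those with a bacterial counterpart.

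The levels covered a 17.7-fold range of TPM. Mrps21, a small-subunit protein with a bacterial counterpart, was highest, with a TPM of 222 in embryo 1 and 249.7 in embryo 2 (mean 236 ± 19.4; here and below ± gives the SD over n = 2 embryos). Mrpl30 followed at 231 ± 14.9 and Mrpl20 at 220.4 ± 19.2, both of the large subunit and of bacterial ancestry. The 3 genes kept this order in both embryos, although the spread between embryos was as large as the gaps between them. The next 7 were Mrpl52 (212 ± 13.6), Mrpl42 (205 ± 16.1), Mrpl58 (177 ± 4.24), Mrpl34 (160.3 ± 9.60), Mrps24 (157 ± 18.4), Mrps33 (155 ± 4.48) and Mrps17 (149.8 ± 6.10). Mrpl58 is a peptidyl-tRNA hydrolase related to bacterial release factors, and Mrps24 is the counterpart of the bacterial protein S3. The embryos' values of neighbours in this order overlapped from Mrps21 to Mrpl42 and from Mrpl34 to Mrps17, and Mrpl58 lay between these 2 runs without touching either. Of 3 coding transcripts of GENCODE M21, only 1 was quantified for Mrpl52, 1 for Mrpl42 and 2 for Mrps33.

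At the other end stood Mrpl1, which builds the mobile stalk beside the exit of spent tRNA. It had a TPM of 13.97 in embryo 1 and 12.75 in embryo 2 (13.4 ± 0.863). Mrpl35 had 15.0 and 15.4 (15.2 ± 0.290). Both genes lay below all the others in both embryos, and their own values did not overlap. The next lowest were Mrpl19 (23.6 ± 1.81), Mrps31 (25.5 ± 2.36), Mrps9 (27.9 ± 2.16) and Mrps27 (28.1 ± 1.499), the last a protein with pentatricopeptide repeats, a fold that binds RNA. Neighbours among these 4 overlapped in their values. For Mrps27 only 1 of 2 coding transcripts of GENCODE M21 was quantified.

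Among the functional groups, the 29 large-subunit genes with a bacterial counterpart had a median TPM of 77.4 in embryo 1 and 80.0 in embryo 2, and the 21 specific to mitochondria 68.8 and 63.5. In the small subunit the corresponding medians were 93.7 and 104.6 for 16 genes and 42.8 and 44.6 for 10 genes. The difference between the medians of ancestral and mitochondria-specific genes had the same direction in both subunits and both embryos. In the large subunit the upper quartile of the gene means went the other way, at 102 for ancestral and 115 for specific genes. The ancestral genes were also shorter, with median effective lengths of 919 against 1011 bases in the large and 784 against 1119 in the small subunit. The part of length in these differences was not tested. They are a description of these lists, since genes are not replicates. Over whole subunits the medians were close, at 71.7 and 75.2 for the large and 62.0 and 66.3 for the small subunit.

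The stalk that recruits translation factors is built of Mrpl10, Mrpl11 and Mrpl12. Mrpl12, the counterpart of the bacterial stalk protein L7/L12, stood at 88.8 in embryo 1 and 115 in embryo 2. Mrpl10, which anchors it, stood at 50.1 and 42.4, and Mrpl11, which forms the base, at 30.6 and 29.2. The 3 genes kept this order in both embryos. Their effective lengths rose in the same order, at 1109, 1609 and 2783 bases. In estimated counts Mrpl11 (1630 and 1553) stood above Mrpl10 (1544 and 1304). For Mrpl11 only 1 of 4 coding transcripts of GENCODE M21 was quantified. In bacterial ribosomes several copies of the stalk protein sit on each anchor. A relation of these levels to copy number was not tested.

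The proteins around the exit of the peptide tunnel, where new membrane proteins leave the ribosome, had a median TPM of 40.0 and 39.9 over 8 genes. Mrpl17 was far above the rest of this group, at 146 and 152. Mrpl22 had 81.3 and 80.0, Mrpl23 50.3 and 66.9, and Mrpl24 45.2 and 43.7. Lower levels were found for Mrpl45, which tethers the ribosome to the inner membrane (31.0 and 36.1), and for Mrpl44, which has an RNase III fold (34.3 and 30.3). Mrpl39, which resembles a threonyl-tRNA synthetase, had 34.8 and 26.9, and Mrpl47 had 31.1 and 28.7. The last 4 of these genes could not be ranked, since their values overlapped between embryos.

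The central protuberance, which contacts the tRNAs at the interface of the subunits, was represented by 9 genes with a median TPM of 92.7 and 99.3. Mrpl52 and Mrpl58 led, with the values above. Mrpl48 stood at 117 and 127, Mrpl27 at 92.7 and 102, Mrpl18 at 94.3 and 99.3, and Mrpl55 at 70.4 and 83.9. Mrpl38 had 58.2 and 63.5, Mrpl46 had 46.0 and 48.5, and Mrpl40 had 43.0 and 41.2. Levels within this substructure therefore ranged from 42.1 to 212 as means, although its proteins are assembled into the same particle.

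TPM divides by length, and short genes had the high values. Across the 77 genes the Spearman correlation of mean TPM with effective length was -0.77, and across all expressed protein-coding genes -0.25; both are descriptions across genes. It was also -0.77 across the 6027 protein-coding genes within the members' range of counts, where a narrow range of counts ties TPM to length by construction. Effective length ran from 313 to 3616 bases. In summed estimated counts, which are not divided by length, the 77 genes covered only a 5.12-fold range, from 1018 for Mrpl23 to 5211 for Mrpl28. The SD of log2 TPM was 0.93 over the 77 genes, 0.92 over the cytosolic ribosomal proteins, 1.60 over the oxidative phosphorylation subunits and 2.01 over expressed protein-coding genes.

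The embryos were then compared with each other, as a measure of the spread between replicates. Ratios were taken from estimated counts scaled by edgeR's TMM factors and are given as embryo 2 over embryo 1. Intervals are exact 95% intervals that cover counting error only. The median log2 ratio was 0.18 over the 77 genes and 0.01 over all 14011 genes with at least 100 summed counts. With this scaling 63 genes were higher in embryo 2 and 14 in embryo 1. Scaled by the ERCC spike-ins, which moved the median of all genes to -0.11, 47 were higher in embryo 2 and 30 in embryo 1.

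The differences were small. Only 1 of the 77 genes passed 1.5-fold towards embryo 2, against 5.65% of all genes tested and 3.74% of the 6181 genes within the members' range of summed counts. None passed it towards embryo 1, against 8.56% and 4.82%. At a lower limit of 25% above the other embryo, 11 of the 77 genes passed towards embryo 2 and none towards embryo 1. Of all 14011 genes tested, 2336 passed towards embryo 2 and 2735 towards embryo 1. Of the 6181 within the range of counts, 855 and 961 did. Within that limit lay 85.7% of the members, beside 63.8% of all genes tested and 70.6% of those within the range of counts. The SD of the log2 ratio was 0.16 over the members and 0.52 over the genes within their range of counts, a set that holds extreme genes. The median size of the log2 ratio, which such genes hardly move, was close in both, at 0.18 and 0.20. The counting interval excluded 1 for 47 of the 77 genes (61.0%), near the 66.4% of all genes tested and the 69.3% of those within the range of counts.

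The gene past 1.5-fold was Mrpl23, at 431 and 587 estimated counts, a ratio of 1.51 (1.33 to 1.71). The next were Mrpl12 with 1885 and 2448 counts and a ratio of 1.44 (1.35 to 1.53), Mrpl14 with 1.36 (1.24 to 1.49) and Mrpl54 with 1.34 (1.23 to 1.47). In the other direction the largest were Mrpl3, a protein near the peptidyl transferase centre, at 1.10-fold higher in embryo 1, and Mrpl37, also at 1.10-fold. With TMM scaling all 9 genes of the central protuberance were higher in embryo 2, with log2 ratios from 0.11 to 0.38, beside 81.8% of the members and 50.6% of all genes tested. By deposited TPM, 7 of the 9 were higher and Mrpl40 and Mrpl58 were lower in embryo 2, beside 61.0% of the members and 34.7% of all genes tested that were higher.

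The ratio followed gene length. The 26 shortest members, with effective lengths of 313 to 726 bases, were all higher in embryo 2, with a median log2 ratio of 0.28. The 689 genes of those lengths in the whole table had the same median, 0.28, and 85.5% of them were higher in embryo 2. The middle 25 members had a median of 0.20, beside 0.19 for 1037 genes of their lengths. The longest 26 had 0.03, beside -0.00075 for 8448 genes. After a smooth trend with length over all genes was subtracted, the members' median log2 ratio was -0.0100, with 35 genes higher in embryo 2 and 42 in embryo 1. The shift towards embryo 2 was thus about as large over all genes tested of the same lengths, a set that includes the members.

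**Figure D2:**
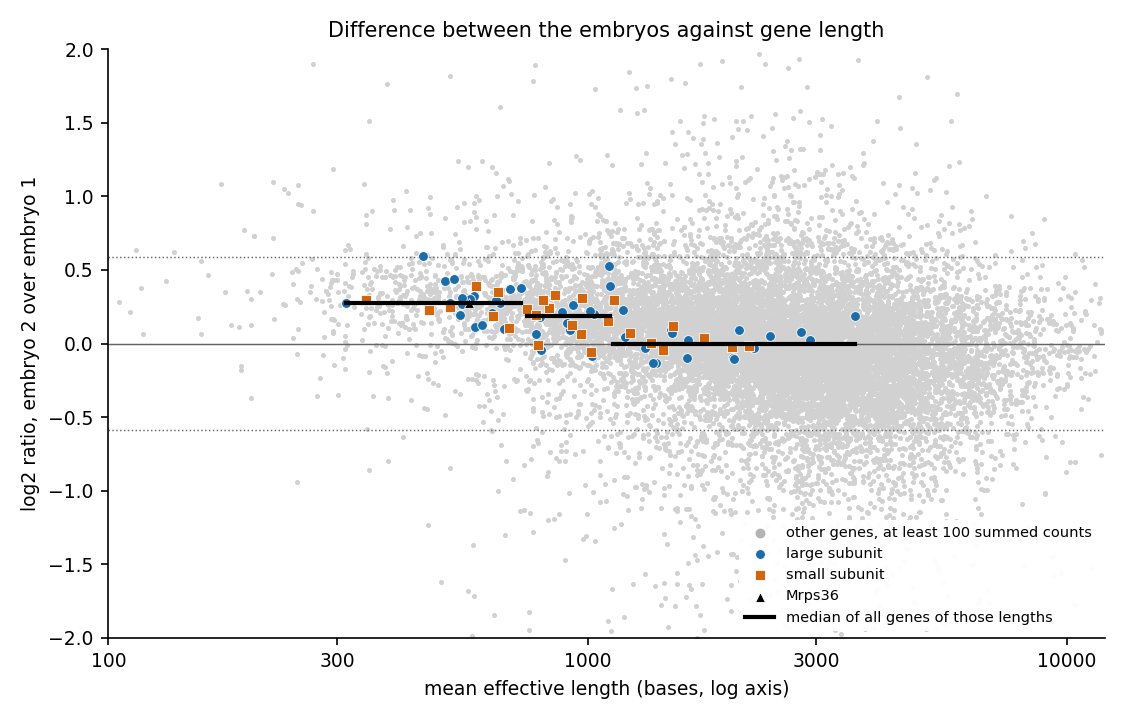
Log2 ratio of embryo 2 over embryo 1, from TMM-scaled estimated counts, against mean effective length in bases on a log axis. Coloured points are the 77 mitochondrial ribosomal protein genes, grey points the other genes with at least 100 summed counts (186 of 14011 lie outside the axes), dotted lines mark 1.5-fold, and black bars mark the median of all genes over the length range of each tertile of the members: 0.28, 0.19 and -0.00075.

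Mrpl23 shares its reads with a copy. Its processed pseudogene Mrpl23-ps1, on mouse chromosome 2 (mm10, 74591330 to 74591909, minus strand), was given a TPM of 109 in embryo 1 and 128 in embryo 2, above the gene itself, which lies on chromosome 7 (142532686 to 142540747, plus strand). The estimated counts of gene and pseudogene were fractional but summed to whole numbers, 1439 and 1767. Of these, 29.9% in embryo 1 and 33.2% in embryo 2 were assigned to the gene. Counted together, gene and pseudogene had a ratio of 1.36 (1.27 to 1.46), below 1.5-fold. The bounds deposited beside the TPM of Mrpl23, from 32.5 to 66.4 in embryo 1 and from 47.6 to 83.1 in embryo 2, overlapped and were the widest of all 77 genes. The level of Mrpl23 and its difference between the embryos are therefore uncertain.

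Ratios of TPM and of counts differed for a few genes. For the typical member the log2 ratio of TPM was 0.15 below that of counts (median). Mrps25 stood apart, at 0.18 above it, as did Mrpl45 at 0.12 and Mrps5 at 0.03. The effective length of Mrps25 was estimated at 2416 bases in embryo 1 and 1929 in embryo 2, and that of Mrpl45 at 2265 and 1879. The lowest were Mrpl39 at -0.26, Mrpl24 at -0.22 and Mrpl19 at -0.20. The effective length of Mrpl39 went the other way, from 1935 to 2103 bases. In Mrpl45 a short coding transcript, Mrpl45-202, took 3.48% of the gene's TPM in embryo 1 and 23.4% in embryo 2.

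At the level of transcripts, most of the RNA was assigned to coding forms. The median share of a gene's TPM from transcripts that GENCODE M21 types as protein_coding was 94.7% in embryo 1 and 96.4% in embryo 2, beside 98.6% for expressed protein-coding genes in both. It was at least 90% in both embryos for 45 genes (58.4%), beside 63.4% of expressed protein-coding genes. The most abundant transcript was a coding one in both embryos for 64 genes. The leading transcript differed between embryos in 3 of 77 genes (3.90%), beside 7.74% of expressed protein-coding genes. In Mrpl48, Mrpl51 and Mrps11 the leading shares were below 50% in both embryos, so closely matched transcripts exchanged places.

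For 13 genes (16.9%), under 50% of the TPM came from coding transcripts in both embryos, beside 7.14% of expressed protein-coding genes. In Mrps26 a retained-intron form took 94.5% and 94.4%, and in Mrps24 such forms took 91.5% and 92.3%. In Mrps25 they took 64.6% and 73.6%, and in Mrpl51 42.1% and 48.1%. Transcripts typed as targets of nonsense-mediated decay, the pathway that removes messages with an early stop codon, took 83.8% and 86.9% of Mrps14, 82.2% and 82.6% of Mrpl3, 57.4% and 55.8% of Mrpl13 and 45.0% and 49.0% of Mrps11. Transcripts typed as processed_transcript, with no assigned reading frame, led in Mrpl23 (90.5% and 83.4%), Mrpl47 (72.4% and 72.1%) and Mrpl15 (56.5% and 52.2%). They were frequent in Mrpl19 (41.8% and 40.5%) and in Mrpl51 (47.9% and 40.9%), where they led in embryo 1 only.

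These shares depend on the annotation. The tables use the earlier GENCODE M4 and the types come from M21. For Mrpl32 the table holds 1 transcript, typed as a decay target, while the coding transcript of M21 is absent from it, so its 100% is a property of the annotation. Of 3 coding transcripts of M21 the table holds 1 for Mrpl23 and 2 for Mrpl3. In the other 10 genes all coding transcripts of M21 are present. Many of the non-coding forms are short: that of Mrps25 is 565 bases against 6073 for its coding transcript, and division by length raises their TPM. Counted in reads instead, the median coding share over the 77 genes was 97.8%, and 8 of the 13 genes stayed under 50% in both embryos. The coding share of reads was 90.3% and 91.1% for Mrpl19, 87.5% and 81.8% for Mrps25, 73.5% and 73.8% for Mrpl47, 51.0% and 52.6% for Mrpl13, and 54.1% and 49.3% for Mrps11.

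**Figure D3:**
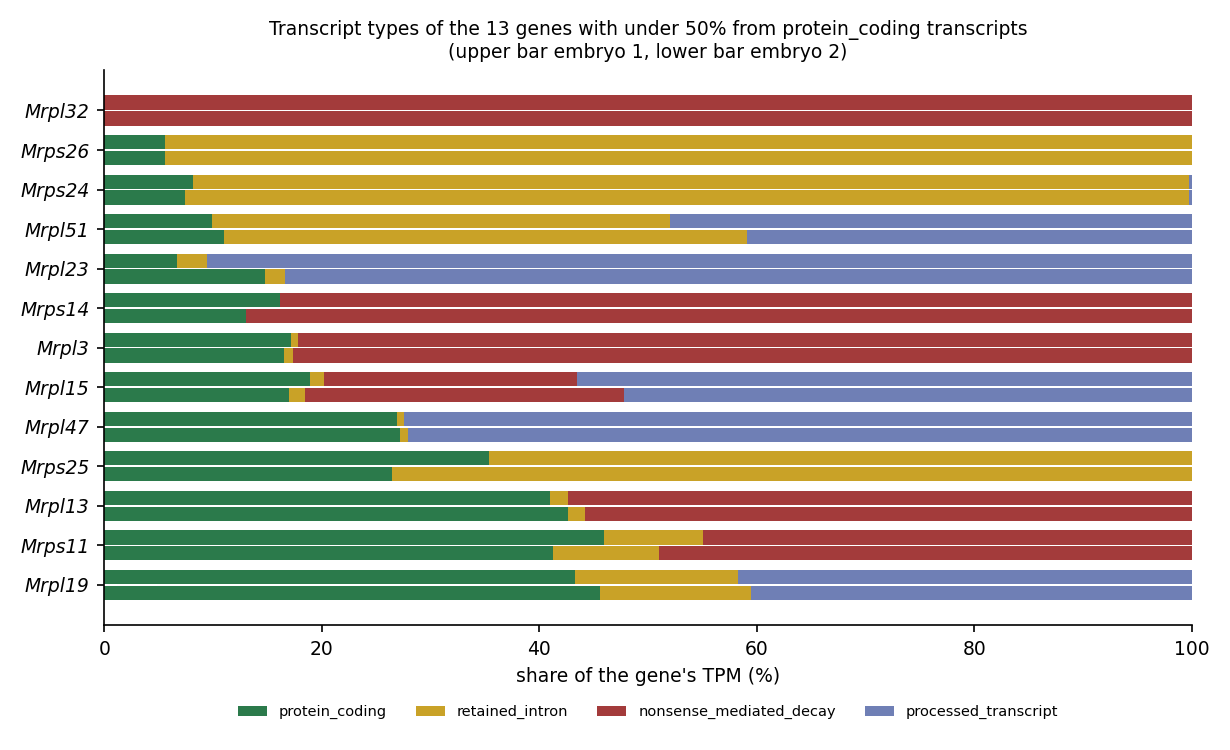
Share of each gene's TPM (percent) by transcript type, for the 13 genes with under 50% from protein_coding transcripts in both embryos, with the upper bar for embryo 1 and the lower for embryo 2. The type with the largest share was the same in both embryos except in Mrpl51 and Mrps11. In Mrps26 it was retained intron, at 94.5% and 94.4%.

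The 77 genes lie on 17 chromosomes, with 11 on chromosome 11 and 8 on chromosome 17. Some of them sit back to back with another gene. For 18 of 77 (23.4%) another gene on the opposite strand starts within 1000 bases upstream, beside 10.1% of expressed protein-coding genes and 6.83% of all protein-coding genes. The share was 22.1% for oxidative phosphorylation subunits and 11.4% for cytosolic ribosomal proteins. In 17 of the 18 pairs the starts were within 500 bases.

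Levels differed several-fold within many of these pairs. Mrps12, a protein of the decoding centre, starts 172 bases from Sars2, the mitochondrial seryl-tRNA synthetase. Mrps12 had a TPM of 86.9 and 100.4, and Sars2 had 12.7 and 12.3. Mrpl30 (221 and 242) starts 66 bases from Mitd1 (11.1 and 11.5), and Mrpl54 (97.7 and 119) starts 26 bases from Apba3 (14.1 and 14.6). The reverse order was found for Mrpl49 (58.6 and 53.9), which starts 59 bases from Fau (400.4 and 449), a gene that encodes a cytosolic ribosomal protein fused to a ubiquitin-like domain. Mrpl32 (116 and 113) starts 75 bases from the proteasome gene Psma2 (325 and 327). Mrpl51 and its partner Ncapd2, a condensin subunit with 41.8 and 32.6, differed in opposite directions between the embryos, with log2 ratios of 0.25 and -0.50. In the other pairs named in this paragraph both genes were higher in embryo 2 with TMM scaling, such as Mrpl30 (0.28) and Mitd1 (0.23). Both cases occurred among the remaining pairs.

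Mrps11 and Mrpl46, a gene of each subunit, overlap at their starts on opposite strands of chromosome 7 and share 173 exonic bases. Mrps11 had a TPM of 52.1 and 58.8, and Mrpl46 had 46.0 and 48.5. Several other members share exonic bases with a neighbour: Mrps25 shares 3533 bases with Nr2c2, Mrpl19 shares 1962 with Gcfc2, and Mrps34 shares 971 with Mapk8ip3, all on the opposite strand. Some share bases on the same strand, such as Mrpl53 with Gm42688 (418 bases), Mrps24 with Urgcp (226) and Mrps6 with Slc5a3 (159). Mrps34 also shares 289 with Nme3 on its own strand, which had a TPM of 61.9 and 86.9. No source used here says whether the libraries keep the strand, and reads in such stretches cannot be told apart.

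RefSeq promoter windows (GRCm38.p6, 250 bases before to 50 after each start) were matched by symbol for 68 of the 77 genes. They were searched on both strands for 3 short motifs known from promoters of mitochondrial genes. The core of NRF1, a regulator of respiratory genes, was searched as GCGCATGCG. The core of the ETS family, which includes the respiratory regulator GABP, was searched as CCGGAAG, and the core of YY1 as AAGATGGCG. The ETS core ends in AAG, with which the YY1 core begins, but no match of one motif overlapped a match of another in these genes. The NRF1 core was present in 7 genes (10.3%), beside 1.95% of all 27025 genes in the table and 4.23% of expressed protein-coding genes. The ETS core was present in 25 genes (36.8%), beside 9.93% and 19.8%, and the YY1 core in 8 (11.8%), beside 1.64% and 3.56%. In all, 35 genes held at least 1 of the 3, 5 held 2, and 33 held none. These combined counts were not made for other genes, so they have no share to stand beside.

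The stretches below show the letters in promoters of genes that differ widely in level, and in Mrpl22, where an NRF1 and an ETS core lay close together before the start. Capitals mark the motif, on the gene's strand or its reverse complement (CTTCCGG for ETS, CGCATGCGC for NRF1), and each stretch ends at or before the annotated start of the gene. They lie at chr11:58171601-58171660 (Mrpl22, plus strand), chr11:97041417-97041485 (Mrpl10, plus), chr3:94443278-94443317 (Mrpl9, plus), chr14:54426832-54426898 (Mrpl52, plus), chr11:115403705-115403751 (Mrpl58, plus), chr17:46110948-46110985 (Mrps18a, plus) and chr13:99344708-99344774 (Mrps27, plus).
Mrpl22: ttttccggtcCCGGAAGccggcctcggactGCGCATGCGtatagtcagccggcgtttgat
Mrpl10: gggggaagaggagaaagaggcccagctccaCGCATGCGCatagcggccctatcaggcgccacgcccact
Mrpl9: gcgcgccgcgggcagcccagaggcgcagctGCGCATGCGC
Mrpl52: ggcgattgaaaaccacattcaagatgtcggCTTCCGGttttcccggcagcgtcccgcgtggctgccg
Mrpl58: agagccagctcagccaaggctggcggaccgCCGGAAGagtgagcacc
Mrps18a: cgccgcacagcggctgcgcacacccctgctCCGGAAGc
Mrps27: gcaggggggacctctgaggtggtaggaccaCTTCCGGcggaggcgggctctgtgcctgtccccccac
In Mrpl9 the letters are a palindrome and match on both strands. Mrpl22 had a mean TPM of 80.6, Mrpl10 46.3 and Mrpl9 42.4, while Mrpl52 had 212, Mrpl58 177, Mrps18a 115 and Mrps27 28.1, so the ETS letters occurred at both ends of the range.

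The share of genes with the letters before the start fell from NRF1 to ETS to YY1, in the members and in expressed protein-coding genes alike. The NRF1 letters lay before the start in all 7 genes, beside 354 of the 423 expressed protein-coding genes that held them. The ETS letters lay before the start in 18 of 25 genes, beside 1549 of the 1983 expressed protein-coding genes that held them. Over 30 matches their median position was 18 bases before the start, a value not taken for other genes. The YY1 letters, which contain the start codon ATG followed by GCG, lay before the start in 2 of 8 genes. Of the 356 expressed protein-coding genes that held them, 138 had them before the start. Genes with the ETS letters had a median TPM of 92.7 in embryo 1 and 100.4 in embryo 2 (25 genes), and genes without them 59.5 and 61.3 (43 genes). Genes with the NRF1 letters had 50.1 and 42.8, and those without 75.9 and 80.3. These medians describe the lists, and a match of letters is not a bound site.

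Letters of classical core promoters were near the share in expressed genes. TATAAA was found in 5 genes (7.35%), beside 8.37% of expressed protein-coding genes and 15.7% of all genes. CCAAT was found in 26 genes (38.2%), beside 43.5% and 41.1%. The windows held a median of 21.5 CpG dinucleotides, beside 20 in expressed protein-coding genes and 7 in all genes.

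**Figure D4:**
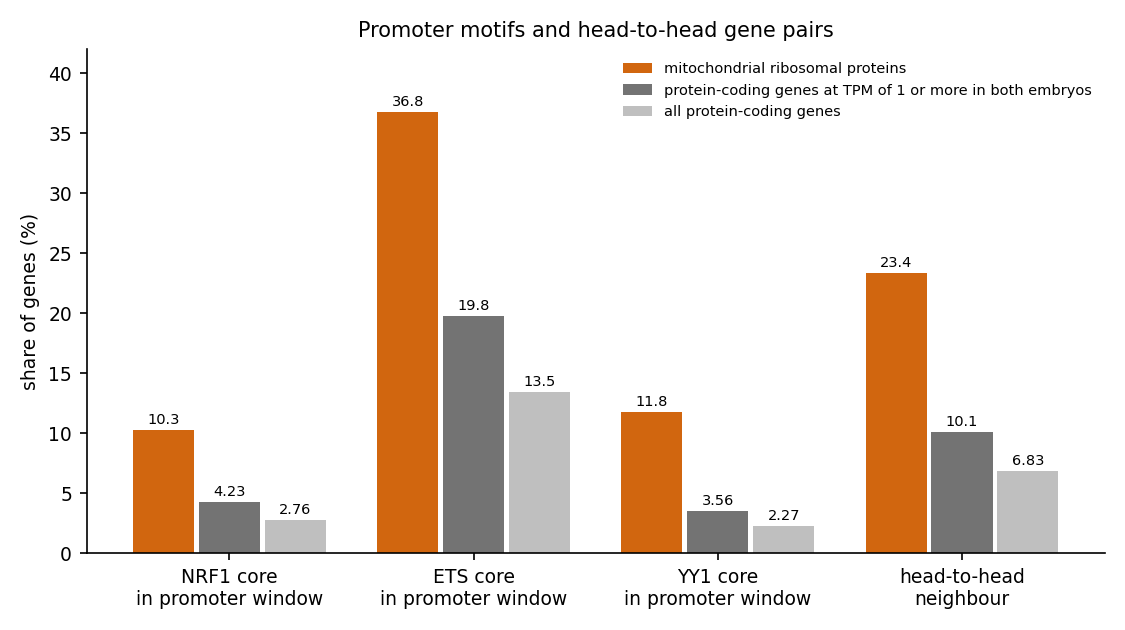
Share of genes (percent) whose promoter window holds the core of NRF1, ETS or YY1, and share with a head-to-head neighbour within 1000 bases. Bars are the mitochondrial ribosomal protein genes (68 for motifs, 77 for neighbours), expressed protein-coding genes and all protein-coding genes; the ETS core is the most frequent, at 36.8%, 19.8% and 13.5%.

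Other genes of mitochondrial translation were placed beside the ribosomal proteins. Of 5 ribosomal subunits with other names, Chchd1 had a mean TPM of 161 ± 11.7, Aurkaip1 98.6 ± 4.27, the GTP-binding Dap3 98.3 ± 17.1, Ptcd3 50.5 ± 15.4 and Gadd45gip1 27.3 ± 1.18, all within the range of the 77. Ptcd3, which helps receive messenger RNA, was 1.40-fold higher in embryo 1 (1.32 to 1.49), a larger difference in that direction than in any of the 77 genes. Factors that act on the ribosome were lower: the median TPM was 25.2 over 25 assembly factors and 24.8 over 16 translation factors. Slirp, which stabilises mitochondrial messengers, stood out at 192 ± 12.6, and the elongation factor Tufm at 98.6 ± 5.40.

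The 20 genes for charging mitochondrial tRNAs had a median TPM of 15.6, and 14 of them were higher in embryo 1 with TMM scaling, beside 49.4% of all genes tested. With spike-in scaling 19 were, beside 62.5%. Their median effective length was 2158 bases. Lars2, the leucyl-tRNA synthetase, was far above the others at 1092 and 1018, and the origin of its reads was not tested. The 10 genes for copying and transcribing mitochondrial DNA had a median of 22.02. None of these 76 nuclear genes passed 1.5-fold, beside 5.65% of all genes tested towards embryo 2 and 8.56% towards embryo 1. The nearest were Rcc1l, at a ratio of 1.49 (1.33 to 1.66), and Wars2, 1.44-fold higher in embryo 1 (1.18 to 1.76).

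The RNAs that the mitochondrial ribosome is built on and reads were also measured. The ribosomal RNAs mt-Rnr1 and mt-Rnr2 had a TPM of 2044 and 5239 in embryo 1 and of 3025 and 7033 in embryo 2. Their count ratios were 1.64 (1.61 to 1.66) and 1.48 (1.47 to 1.49). Of the 13 mitochondrial messenger RNAs, 12 were higher in embryo 2 with TMM scaling, beside 50.6% of all genes tested. With spike-in scaling 12 were as well, beside 37.5%. The exception was mt-Nd4l, at 1.29-fold higher in embryo 1 (1.12 to 1.499) with TMM scaling. Past 1.5-fold towards embryo 2 were 3 of the 13, beside 5.65% of all genes tested. They were mt-Nd3 at 2.11 (1.97 to 2.27), mt-Co2 at 1.81 (1.78 to 1.85) and mt-Co1 at 1.62 (1.61 to 1.63). The median log2 ratio was 0.28 over these 13 RNAs, 0.35 over the nuclear genes of oxidative phosphorylation and 0.23 over the cytosolic ribosomal proteins, beside 0.18 for the mitochondrial ribosomal proteins. The genes of these sets are shorter. Their median effective lengths were 685 bases for the mitochondrial messengers, 567 for oxidative phosphorylation and 580 for cytosolic ribosomal proteins, beside 919 for the mitochondrial ribosomal proteins. Across all genes tested the Spearman correlation of the log2 ratio with length was -0.31. It was -0.69 over oxidative phosphorylation and -0.64 over cytosolic ribosomal proteins, but 0.02 over the 13 mitochondrial messengers. The part of length in these medians was not tested.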

How the data were processed

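Gene and transcript tables of both libraries were used as deposited. They rest on the mm10 assembly and GENCODE M4, as the deposited text records state. Which quantifier made them was not given in the sources used here. The authors deposited expected counts (estimated reads, divided among places that a read fits), TPM, FPKM, and each transcript's percent of its gene. FPKM and the deposited percent entered only as alternatives. Symbols, gene and transcript types and coordinates came from GENCODE M21 (98.0% of Ensembl rows matched). Rows with numeric identifiers held 6 and 14 counts and were left out with the spike-ins. Members and lists were chosen with earlier results of these data known.

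Levels are deposited TPM, with mean and SD over 2 embryos. An expressed gene had a TPM of at least 1 in both. Ratios used expected counts, unrounded, scaled by TMM factors (edgeR 4.0.16 in R 4.3.3; DESeq2 1.42.0 as alternative), a prior count of 0.5 and at least 100 summed counts. Their exact conditional binomial 95% intervals, on rounded counts, hold counting error alone: without molecular identifiers, PCR copies of a molecule count as separate reads. The 2 samples are separate pups per the labels. The ratio calculation was tested on simulated data. Python 3.11.15 did the rest. The text names genes by fixed rules: the 10 highest and 6 lowest by mean TPM, those past 1.5-fold, the stalk, tunnel exit and central protuberance lists, the 3 extremes of TPM against count ratio at each end, and genes whose leading transcript differed or whose coding share was under 50%. Other genes named, such as those next in ratio, overlapping or back-to-back neighbours, and promoters shown, were picked after their values were seen. The protein sequences planned for description were not used here.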

Additional observations from a re-analysis of the deposited data

Results flagged for a closer look

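The processed pseudogene Mrpl23-ps1 is not one of the chosen genes, yet it carried a signal outside the main measurement. Its mean TPM was 119 over both embryos, with 1008 estimated counts in embryo 1 and 1180 in embryo 2, above a floor of 3 counts. The other pseudogenes of this family in the tables had a mean TPM of at most 1.49. How the reads shared by Mrpl23 and Mrpl23-ps1 divide between them was not tested.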

How the results depend on the processing

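No paired analysis was possible because the samples form 1 group. The median log2 ratio over the 77 genes was 0.18, and 0.061 as a ratio of TPM and -0.0100 after removal of the length trend. It was 0.16 under DESeq2 size factors or total counts, 0.074 with spike-ins, and 0.18 with posterior mean counts, a prior count of 2, other count filters or without Mrpl23. A scaling moves all genes alike: the members' median stood 0.18 above that of all genes under each scaling of counts. The 1 gene past 1.5-fold towards embryo 2 became 0 under DESeq2, total-count, spike-in or TPM scaling, with the pseudogene included, with the length trend removed, or at 2-fold, and 11 at a limit of 25%. Including the pseudogene, removing the length trend for this count and leaving out Mrpl23 were chosen after seeing the data, as was the comparison with genes in the members' range of counts. All 77 genes were detected at each TPM limit tried, 0.5 to 10, and with either embryo alone. The median TPM was 71.4, between 70.9 and 72.9 with 1 embryo left out, 69.3 from posterior means and 92.4 from FPKM rescaled as TPM over protein-coding nuclear genes. The large-subunit median lay between 71.7 and 75.2 with 1 embryo left out. The coding share was 97.8% by counts. The YY1 letters were in 2.94% of promoters before the start only, beside 1.38% of expressed protein-coding genes. The description of protein length and charge was not run. With 2 animals, biological variation is poorly known; counting error is small, since each gene had at least 1018 summed counts.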
